A study of Mus musculus with 9 samples.

Results

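The insulin-like growth factor (IGF) system was examined through the transcripts of 10 genes, of 41710 gene names in the deposited tables: the ligand Igf1, the receptors Igf1r, Igf2r and Insr, and the binding proteins Igfbp2 to Igfbp7. The genes were chosen by name, and the reads and TPM values of all transcripts that carry a gene's name were summed. TPM values count transcripts after correction for their length, on a common total per library, so levels of different genes can be set side by side on this scale. All 10 genes were present in the tables and passed the filter on low counts.

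The libraries came from whole pulverised hearts of male FVB/N mice at 8 months of age, kept on a standard diet. The groups were Tg-RKIP, which carry a transgene for the RAF kinase inhibitor protein RKIP (mouse gene Pebp1) driven in the myocardium by the alpha-MHC promoter, Tg-GRK2, whose transgene is given as the G protein-coupled receptor kinase GRK2, and non-transgenic FVB/N controls (FVB), with n = 3 libraries per group from hearts that the labels number separately. Pebp1 stood at 16199 ± 208 TPM (SD) in Tg-RKIP and at 325 ± 4.54 TPM in FVB. The libraries labelled Tg-GRK2 held Grk2 at 27.3 ± 2.90 TPM, close to the 27.1 ± 1.05 TPM of FVB (log2 fold change 0.054, edgeR adjusted p = 0.354), and are therefore named by their label only.

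Insulin-like growth factor 1 is a secreted peptide made in liver and locally in muscle and heart under the control of growth hormone. It acts through the tyrosine kinase IGF1R, which is closely related to the insulin receptor INSR, whereas IGF2R, also the cation-independent mannose-6-phosphate receptor, carries IGF2 and lysosomal enzymes to lysosomes and is not a kinase. In blood and matrix most IGF is held by binding proteins, which prolong its life and keep it from its receptors until they are cleaved. In heart muscle this pathway is known for its roles in growth and survival of cardiomyocytes.

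Libraries held 25458108 to 33447654 reads. Mitochondrial genes took 11.7% ± 0.156 of the reads in Tg-RKIP, 23.1% ± 0.158 in FVB and 22.6% ± 0.299 in the libraries labelled Tg-GRK2. Log2 fold changes are therefore given on counts normalized by the TMM method, on which the median of all 15504 tested genes in Tg-RKIP against FVB was 0.0085. With scaling to library size only this median was 0.38, and on log2(TPM + 0.1) it was 0.43, so over all genes fold changes stand about that much higher on these scales. Of all tested genes, 73.9% passed the threshold in Tg-RKIP against FVB, 36.8% higher and 37.1% lower, 24.5% passed in the libraries labelled Tg-GRK2 against FVB, and 74.5% in Tg-RKIP against the libraries labelled Tg-GRK2.

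In Tg-RKIP hearts the transcripts of Igf1, of its receptor Igf1r and of all 6 binding proteins were higher than in FVB hearts, and those of Igf2r and Insr were lower. All 10 genes passed the threshold (adjusted p under 0.05, edgeR's quasi-likelihood test, Benjamini-Hochberg over 15504 genes), beside the 73.9% of all genes that did so, and the number called carries little information at such a background. The sizes differed more between the genes. The median log2 fold change was 1.61 over the 6 binding proteins and 0.81 over all 10 genes, beside 0.0085 over all tested genes. Without regard to sign, the median over all tested genes was 0.40, and Igf1 (0.31) and Igfbp5 (0.24) lay below it. In edgeR's glmTreat test against a 1.5-fold change, 7 of 10 passed, 5 higher and 2 lower, beside 23.6% of all genes. Igf1, Igf1r and Igfbp5 did not. This test was run with TMM only. With library size only the log2 fold changes were 0.69 for Igf1, 0.88 for Igf1r, 0.62 for Igfbp5, -0.34 for Igf2r and -0.46 for Insr. The side of a 1.5-fold change on which these genes lay thus depended on the scaling. The genes at least 1 higher on the log2 scale were 5 of 10 (Igfbp2, Igfbp3, Igfbp4, Igfbp6 and Igfbp7), beside 10.2% of all genes, and 0 of 10 were at least 1 lower, beside 6.12%.

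**Figure D1:**
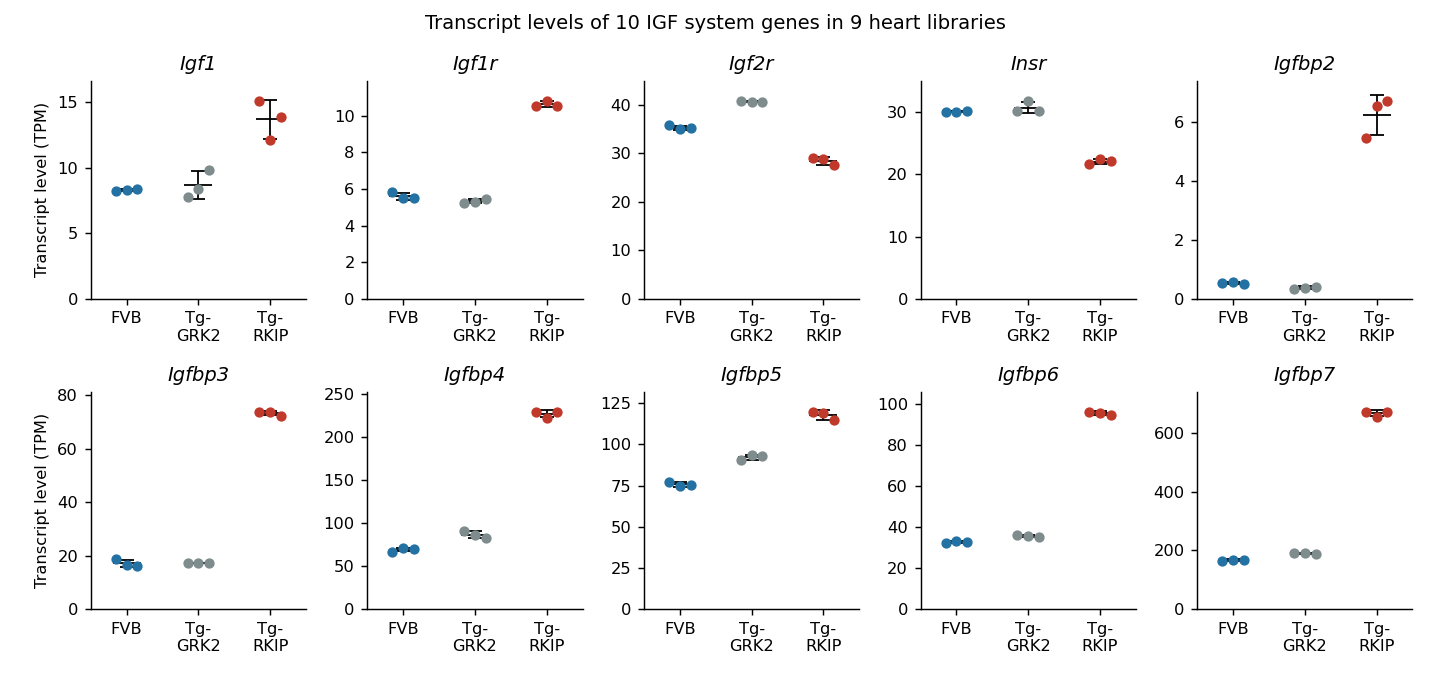
Transcript levels (TPM, vertical axes from 0) of the 10 genes in each library; points are libraries, horizontal marks are group means and bars are SD (n = 3). The Tg-RKIP libraries lie above all FVB libraries for 8 genes and below them for Igf2r and Insr, and Tg-GRK2 denotes the libraries labelled so.

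Igf1, the ligand, lies on chr10:87694127-87772904 (GRCm39, plus strand) and is annotated with 8 coding transcripts. Its level was 15.1, 12.1 and 13.9 TPM in the 3 Tg-RKIP libraries, 8.18, 8.27 and 8.34 TPM in FVB, and 7.80, 8.39 and 9.83 TPM in the libraries labelled Tg-GRK2. Every Tg-RKIP library was above every other library. The log2 fold change in Tg-RKIP against FVB was 0.31 (SE 0.038, adjusted p = 2.17e-07 by edgeR's quasi-likelihood test) on TMM-normalized counts, and 0.72 (adjusted p = 2.68e-04) on log2(TPM + 0.1) with limma.

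The TPM of Igf1 spread more among libraries than its reads did, with SD 1.5 TPM around a mean of 13.7 in Tg-RKIP where the TMM-normalized counts had a coefficient of variation of 2.66%. A coding transcript of 651 bases took 34, 5 and 22 reads in the Tg-RKIP libraries. It held 1.33% of the gene's reads there and 1.84 of the 13.7 TPM, while the main transcript of 7052 bases held 93.7% to 99.0% of the reads across libraries.

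Igf1r, the receptor kinase for IGF1, lies on chr7:67602575-67883416 (GRCm39, plus strand). Its level was 10.5, 10.8 and 10.5 TPM in Tg-RKIP hearts, 5.83, 5.50 and 5.49 TPM in FVB and 5.23, 5.29 and 5.45 TPM in the libraries labelled Tg-GRK2. Tg-RKIP libraries were all above the others, and the log2 fold change against FVB was 0.51 (SE 0.033, adjusted p = 6.26e-12).

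Insr, the insulin receptor kinase, lies on chr8:3172061-3329617 (GRCm39, minus strand). It stood at 21.6, 22.4 and 22.2 TPM in Tg-RKIP, at 30.1, 30.1 and 30.3 TPM in FVB and at 30.2, 31.8 and 30.2 TPM in the libraries labelled Tg-GRK2. All Tg-RKIP libraries were lower than all others, with a log2 fold change against FVB of -0.84 (SE 0.022, adjusted p = 9.48e-19).

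The related kinases Igf1r and Insr thus moved in opposite directions in Tg-RKIP hearts, and their ratio, which does not depend on the scaling between libraries, was 0.482 ± 0.00642 in Tg-RKIP, 0.186 ± 0.00688 in FVB and 0.173 ± 0.00721 in the libraries labelled Tg-GRK2. Neither the Tg-RKIP libraries nor those labelled Tg-GRK2 overlapped FVB in this ratio. The exact two-sided permutation test gave p = 0.1 for each, the smallest that 3 against 3 libraries allow. The levels of Igf1r and Insr were closer to each other in Tg-RKIP, and Insr remained above Igf1r in every library.

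Igf2r, the mannose-6-phosphate and IGF2 receptor, lies on chr17:12901293-12988551 (GRCm39, minus strand). It stood at 28.9, 28.8 and 27.5 TPM in Tg-RKIP, at 35.7, 34.9 and 35.1 TPM in FVB and at 40.8, 40.6 and 40.6 TPM in the libraries labelled Tg-GRK2. The 3 groups were separate, with Tg-RKIP lowest. The log2 fold change in Tg-RKIP against FVB was -0.72 (SE 0.022, adjusted p = 7.55e-18), and -0.34 with library size only. Airn, an RNA on the opposite strand that overlaps Igf2r, held 113 to 178 reads per library where Igf2r held 4057 to 7729. Whether reads were counted by strand is not given in the sources used here, and reads of the pair cannot then be told apart.

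After the sparsely read Igfbp2, the largest rises in Tg-RKIP were those of Igfbp3, Igfbp4 and Igfbp7. Their promoter windows are printed here, with that of Igf2r, which fell, to show whether genes that moved together share letters. The sequences are from RefSeq on GRCm38.p6, for which 9 of the 10 genes had an entry, and end at the base before the annotated start of transcription. Capitals mark matches, on either strand, to a TATA box (TATAAA), a GC box (the letters GGGCGG), the CCAAT box, a FOXO element (GTAAACA) or an AP-1 element (TGACTCA), and no match of one motif shared letters with another motif.
Igfbp3, chr11:7213924-7214173, minus strand: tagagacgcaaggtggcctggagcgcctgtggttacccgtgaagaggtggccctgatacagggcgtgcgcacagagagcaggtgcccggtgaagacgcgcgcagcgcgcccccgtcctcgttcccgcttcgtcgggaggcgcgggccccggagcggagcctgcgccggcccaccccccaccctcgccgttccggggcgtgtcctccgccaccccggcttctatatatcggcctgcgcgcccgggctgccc
Igfbp4, chr11:99040994-99041243, plus strand: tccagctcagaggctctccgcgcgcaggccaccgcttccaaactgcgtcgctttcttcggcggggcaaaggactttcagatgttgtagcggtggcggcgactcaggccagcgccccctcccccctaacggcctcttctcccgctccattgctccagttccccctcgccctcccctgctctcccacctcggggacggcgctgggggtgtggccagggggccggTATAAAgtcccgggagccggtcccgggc
Igfbp7, chr5:77408046-77408295, minus strand: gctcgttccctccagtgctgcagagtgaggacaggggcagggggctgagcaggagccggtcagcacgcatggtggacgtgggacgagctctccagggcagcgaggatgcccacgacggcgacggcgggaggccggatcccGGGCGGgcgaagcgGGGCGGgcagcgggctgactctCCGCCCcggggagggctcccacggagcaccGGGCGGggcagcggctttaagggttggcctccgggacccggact
Igf2r, chr17:12769707-12769956, minus strand: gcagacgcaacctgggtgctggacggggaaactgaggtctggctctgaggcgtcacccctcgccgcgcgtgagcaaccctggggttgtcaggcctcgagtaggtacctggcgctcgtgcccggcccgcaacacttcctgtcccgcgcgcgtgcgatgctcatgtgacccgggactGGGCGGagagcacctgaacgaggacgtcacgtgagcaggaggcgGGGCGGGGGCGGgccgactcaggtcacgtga

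Igfbp3 had no match to these letters in the window, Igfbp4 had a TATA box that begins 28 bases before the start, Igfbp7 had 4 GC boxes and Igf2r had 3. Of 32851 promoter windows of the same length, 12.4% held the TATA box, 32.7% the GC box, 33.8% the CCAAT box, 3.17% the FOXO element and 4.46% the AP-1 element. Among the 9 genes, a GC box was found for 4 (Igf1r, Igf2r, Igfbp2 and Igfbp7) and a TATA box for 2 (Igfbp4 and Igfbp6). The GC content was 73.2% for Igfbp3, 69.2% for Igfbp4, 74.0% for Igfbp7 and 69.2% for Igf2r, beside a median of 52.4% over all windows. Genes that rose and the gene that fell were thus both GC-rich here, and the 3 binding proteins shared none of these motifs.

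Igfbp7, a secreted protein of vessel walls and matrix that binds IGF with low affinity, was the most abundant of the 10 in every library and lies on chr5:77497087-77555888 (GRCm39, minus strand). Its level was 671, 654 and 670 TPM in Tg-RKIP hearts, 163, 167 and 169 TPM in FVB and 190, 191 and 187 TPM in the libraries labelled Tg-GRK2. The groups did not overlap, and the log2 fold change in Tg-RKIP against FVB was 1.58 (SE 0.021, adjusted p = 4.23e-24), a 2.99-fold difference on TMM-normalized counts and a 3.99-fold difference in mean TPM. Polr2b, on the opposite strand, overlaps the gene's end and held 1404 to 1821 reads per library, beside 3314 to 15787 for Igfbp7.

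Igfbp4, which restrains IGF action until it is cleaved by pappalysin, lies on chr11:98932070-98945218 (GRCm39, plus strand). It stood at 229, 222 and 229 TPM in Tg-RKIP, at 67.0, 70.6 and 69.6 TPM in FVB and at 90.9, 85.7 and 82.6 TPM in the libraries labelled Tg-GRK2. The 3 groups were separate, with a log2 fold change in Tg-RKIP against FVB of 1.64 (SE 0.024, adjusted p = 2.53e-23).

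The Igfbp4 total was made of transcripts that differ in length. The main coding transcript of 3831 bases stood at a mean of 159 TPM in Tg-RKIP, 34.9 TPM in FVB and 39.4 TPM in the libraries labelled Tg-GRK2. A processed transcript of 785 bases, annotated as non-coding, stood at 63.1, 28.3 and 40.1 TPM in the same order. It held 7.45% of the gene's reads in Tg-RKIP, 13.9% in FVB and 17.0% in the libraries labelled Tg-GRK2. The coding transcript therefore differed more between Tg-RKIP and FVB than the sum did, and how reads common to both were divided is not given in the sources used here.

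Igfbp3, the main carrier of IGF in blood together with the acid-labile subunit, lies on chr11:7156086-7163923 (GRCm39, minus strand). Its level was 73.9, 73.7 and 72.4 TPM in Tg-RKIP hearts, 18.8, 16.6 and 16.3 TPM in FVB and 17.3, 17.5 and 17.3 TPM in the libraries labelled Tg-GRK2. The Tg-RKIP libraries lay far above the others, which overlapped each other, and the log2 fold change against FVB was 1.67 (SE 0.038, adjusted p = 4.30e-20).

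Igfbp6, which prefers IGF2 to IGF1, lies on chr15:102052797-102057946 (GRCm39, plus strand) and has a single annotated transcript. It stood at 96.5, 95.9 and 94.6 TPM in Tg-RKIP, at 32.5, 33.4 and 32.9 TPM in FVB and at 36.3, 35.6 and 35.1 TPM in the libraries labelled Tg-GRK2. Tg-RKIP libraries were higher than all others, with a log2 fold change against FVB of 1.12 (SE 0.034, adjusted p = 9.62e-18).

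Igfbp5, a binding protein that attaches to extracellular matrix, lies on chr1:72897091-72914043 (GRCm39, minus strand). Its level was 120, 119 and 115 TPM in Tg-RKIP hearts, 77.5, 74.6 and 75.6 TPM in FVB and 90.6, 93.6 and 92.7 TPM in the libraries labelled Tg-GRK2. The log2 fold change in Tg-RKIP against FVB was 0.24 (SE 0.018, adjusted p = 1.09e-10), the smallest of the 6 binding proteins. It was 0.62 with library size only.

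Igfbp2 lies next to it on chromosome 1 (chr1:72863662-72891633, GRCm39, plus strand), with 5457 bases between the 3' ends of the converging genes. It stood at 5.46, 6.53 and 6.72 TPM in Tg-RKIP, at 0.546, 0.553 and 0.512 TPM in FVB and at 0.323, 0.378 and 0.414 TPM in the libraries labelled Tg-GRK2. The log2 fold change in Tg-RKIP against FVB was 3.02 (SE 0.19, adjusted p = 4.93e-12), the largest of the 10 genes at the lowest level. Its reads numbered 112, 169 and 121 in Tg-RKIP but 12, 14 and 12 in FVB and 8, 9 and 10 in the libraries labelled Tg-GRK2, so the size of this change is less certain than its direction. The neighbours Igfbp2 and Igfbp5 thus held the extremes of the range among binding proteins.

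**Figure D2:**
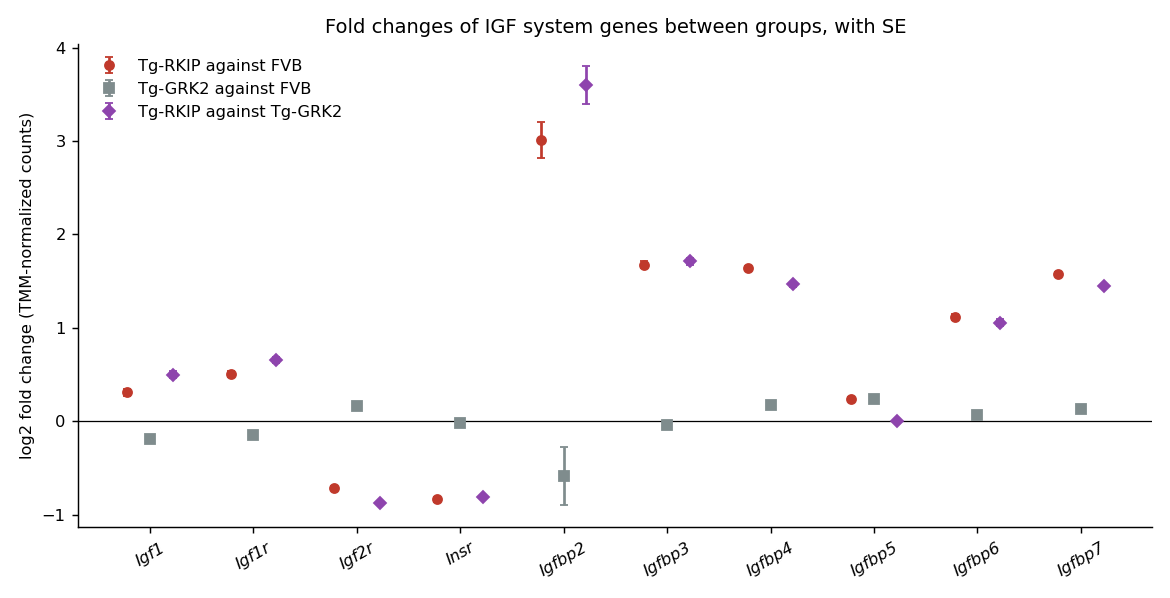
Log2 fold change of TMM-normalized counts (vertical axis) for the 10 genes in 3 comparisons; bars are SE from edgeR's quasi-likelihood fit. Igfbp2 is highest in Tg-RKIP against FVB at 3.02 and Insr lowest at -0.84, and Tg-GRK2 denotes the libraries labelled so.

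Within a library, the binding proteins can be compared as a pool, whose composition does not depend on scaling. Their summed level was 1185 ± 13.0 TPM in Tg-RKIP, 362 ± 2.16 TPM in FVB and 422 ± 5.40 TPM in the libraries labelled Tg-GRK2. Igfbp7 made up 56.1% ± 0.291 of the pool in Tg-RKIP and 46.0% ± 0.534 in FVB, whereas Igfbp5 made up 9.94% ± 0.265 and 21.0% ± 0.513. The share of Igfbp3 was 6.19% ± 0.102 in Tg-RKIP and 4.76% ± 0.414 in FVB, that of Igfbp6 was 8.08% ± 0.114 and 9.10% ± 0.108, and that of Igfbp2 was 0.527% ± 0.0611 and 0.148% ± 0.00673. The share of Igfbp4 was 19.1% ± 0.176 in Tg-RKIP and 19.1% ± 0.423 in FVB.

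Of these 6 shares, 5 did not overlap between Tg-RKIP and FVB libraries, each at p = 0.1, the smallest possible value of the exact two-sided permutation test for 3 against 3 libraries. Beside this, 75.7% of all tested genes did not overlap in TMM-normalized counts. The share of Igfbp4 overlapped (exact permutation p = 0.9), but the measure mattered for it. Its share was 3.51 percentage points higher in Tg-RKIP than in FVB with the main transcript of each gene alone, and 9.34 higher in shares of reads. The sign for Igfbp6 depended on it as well, with a difference of -1.02 percentage points in TPM and 0.22 in shares of reads. The pool thus held more Igfbp7 and less Igfbp5 in Tg-RKIP.

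Igf1 amounted to 1.15 ± 0.115 TPM per 100 TPM of binding proteins in Tg-RKIP and to 2.28 ± 0.00796 in FVB (exact permutation p = 0.1), and to 2.06 ± 0.276 in the libraries labelled Tg-GRK2, which overlapped FVB (p = 0.4). The ligand rose less than the sum of its binding proteins.

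**Figure D3:**
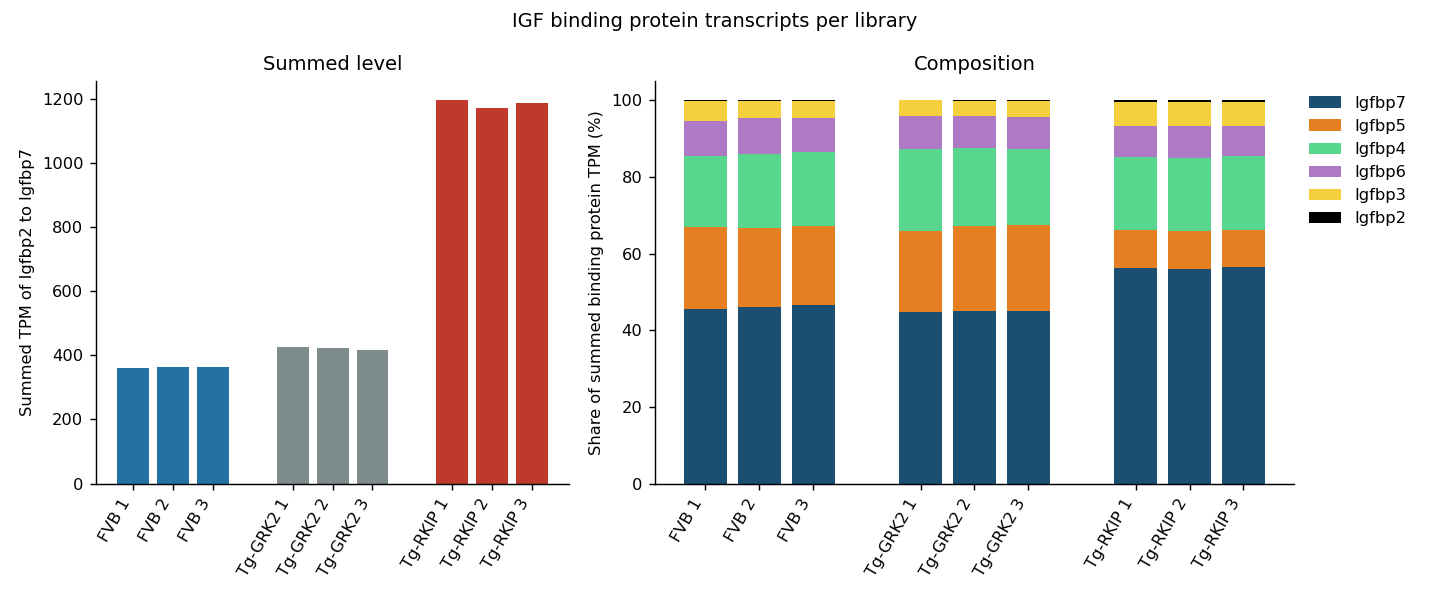
Left, the summed level of Igfbp2 to Igfbp7 (TPM, axis from 0) in each of 9 libraries; right, the share of each binding protein in that sum (%). In Tg-RKIP the sum is 1185 TPM on average against 362 in FVB, with a larger share of Igfbp7 and a smaller one of Igfbp5; Tg-GRK2 denotes the libraries labelled so.

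The order of levels also differed between groups. In FVB it ran, by mean TPM, from Igfbp7 (167) over Igfbp5 (75.9), Igfbp4 (69.1), Igf2r (35.3), Igfbp6 (33.0), Insr (30.1), Igfbp3 (17.2), Igf1 (8.27) and Igf1r (5.61) to Igfbp2 (0.537), and neighbours in this order did not overlap over the 3 libraries. In Tg-RKIP, Igfbp4 (227) came before Igfbp5 (118), and Igfbp6 (95.7) and Igfbp3 (73.4) stood above Igf2r (28.4) and Insr (22.1). In the libraries labelled Tg-GRK2 the order was that of FVB, but Igfbp5 and Igfbp4 overlapped.

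The directions of all 10 genes in Tg-RKIP against FVB were the same with TMM, with DESeq2 size factors, with library size only and on log2(TPM + 0.1), as the plot of fold changes under 4 scalings shows, and all 10 passed the threshold in each. With library size only the sizes moved by about the shift of all genes, while on log2(TPM + 0.1) Igfbp4 moved less, from 1.64 to 1.71, and Igfbp2 from 3.02 to 3.31. Relative to the median of all genes, Igf1 and Igfbp5 stood closest to it, and Igf2r and Insr lay below it on every scale.

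**Figure D4:**
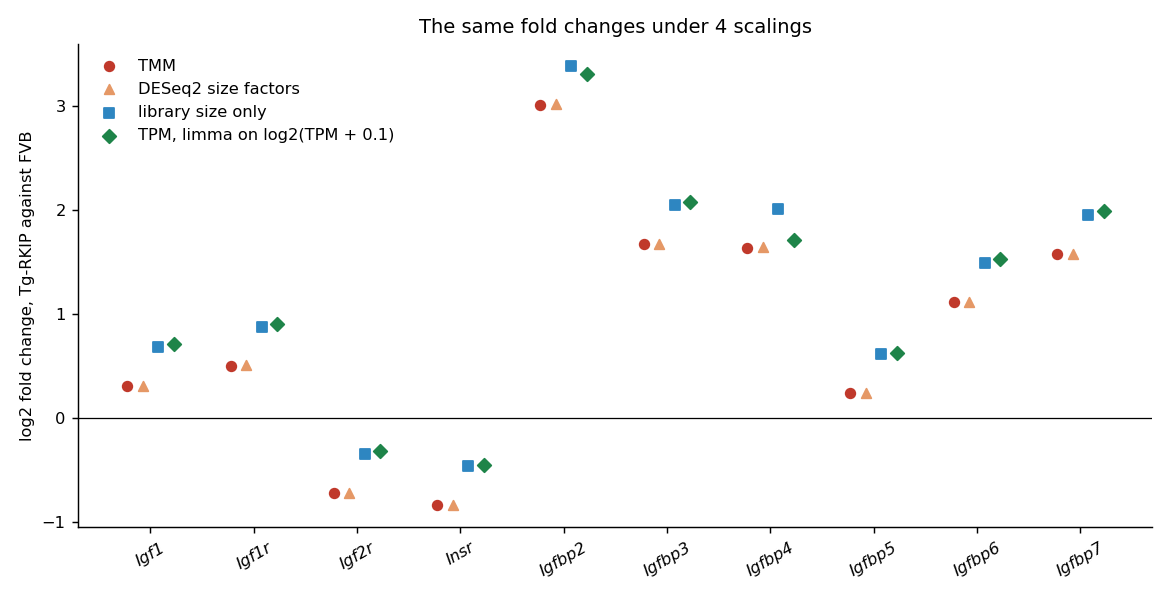
Log2 fold change in Tg-RKIP against FVB (vertical axis) of the 10 genes under 4 scalings. Values with library size only and on log2(TPM + 0.1) lie above those with TMM, and no gene crosses 0.

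In the libraries labelled Tg-GRK2 against FVB, 6 of 10 genes passed the threshold, beside 24.5% of all genes, with 4 higher (Igf2r, Igfbp4, Igfbp5 and Igfbp7) and 2 lower (Igf1 and Igf1r). These changes were small: the log2 fold changes were 0.24 for Igfbp5 (SE 0.019, adjusted p = 2.47e-09), 0.18 for Igfbp4 (SE 0.026, adjusted p = 2.18e-05), 0.16 for Igf2r (SE 0.021, adjusted p = 5.39e-06) and 0.14 for Igfbp7 (SE 0.022, adjusted p = 8.35e-05). Igf1 was at -0.19 (SE 0.041, adjusted p = 0.00165) and Igf1r at -0.15 (SE 0.036, adjusted p = 0.00425). On log2(TPM + 0.1) neither was called, and Igf1 was then at 0.062 (adjusted p = 0.722). For Insr (-0.022), Igfbp2 (-0.58), Igfbp3 (-0.039) and Igfbp6 (0.062) the test was not passed. Of these, limma on log2(TPM + 0.1) called Igfbp2 lower (-0.44, adjusted p = 0.0214) and Igfbp6 higher (0.11, adjusted p = 0.0384). Insr and Igfbp3 were not called there either. With edgeR's glmTreat against a 1.5-fold change, 0 of 10 genes passed, beside 1% of all genes, and 0 also at an unadjusted p under 0.05, while DESeq2's test of any change called 6.

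Tg-RKIP hearts and the libraries labelled Tg-GRK2 differed in 9 of 10 genes, beside 74.5% of all genes. Tg-RKIP was higher in 7 (37.9% of all genes) and lower in 2 (36.6%), and these 9 did not overlap between the groups (76.4% of all genes). Against a 1.5-fold change 8 passed (24.9% of all genes), Igf1 and Igfbp5 being the exceptions, and 5 were at least 1 higher on the log2 scale (9.89%) and 0 at least 1 lower (6.91%). The log2 fold changes in Tg-RKIP against them were 3.60 for Igfbp2, 1.71 for Igfbp3, 1.47 for Igfbp4, 1.44 for Igfbp7, 1.06 for Igfbp6, 0.65 for Igf1r and 0.50 for Igf1, and -0.81 for Insr and -0.88 for Igf2r. Igfbp5 did not pass, at 0.00098 (SE 0.018, adjusted p = 0.965), but did with library size only, at 0.36 (adjusted p = 9.71e-14). The comparisons with FVB share the FVB libraries.

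The other genes of the pathway were taken from lists of 73 genes, of which 66 passed the filter on low counts. In Tg-RKIP against FVB, 17 were higher and 41 lower, with a median log2 fold change of -0.25, beside 36.8% and 37.1% of all genes. This balance depended on the scaling, with 34 higher and 23 lower with library size only and a median of 0.12. Over all genes the share of calls that were higher was 49.8% with TMM and 78.6% with library size only. In the libraries labelled Tg-GRK2 against FVB, 16 were higher and 12 lower, beside 12.2% of all genes in each direction. On log2(TPM + 0.1) 11 were higher and 3 lower of 62, beside 1578 higher and 613 lower of all 13478 genes on that scale.

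Among ligands and extracellular regulators, 5 of 9 tested genes were called higher and 1 lower with TMM, and 7 higher and 0 lower with library size only. On log2(TPM + 0.1), where 6 of them were tested, 6 were called higher. Of all genes, 36.8% were called higher and 37.1% lower with TMM. With library size only 9709 of all 15504 genes were called higher, and on log2(TPM + 0.1) 8889 of 13478. Of the proteases that cleave binding proteins, 4 were higher with TMM and with library size only. With TMM Pappa2 had a log2 fold change of 1.08 (adjusted p = 8.23e-04), Pappa 0.51 (adjusted p = 0.0175), Htra1 0.38 (adjusted p = 9.14e-12) and Htra3 0.13 (adjusted p = 5.36e-05), and Stc1, whose product inhibits pappalysin, 0.33 (adjusted p = 0.0177). Pappa2 was near the lower end of detection, with 43 to 75 reads in Tg-RKIP and 14 to 29 in FVB, and Htra1 was the most abundant at 119.6 ± 1.62 TPM in Tg-RKIP hearts and 66.0 ± 0.697 TPM in FVB. Stc2 (-0.10), Adamts1 (-0.089) and Igfals (-0.024) did not pass with TMM. With library size only Stc2 was at 0.27 (adjusted p = 6.18e-05) and Adamts1 at 0.29 (adjusted p = 1.74e-06), and both were then called higher, so their calls depend on the scaling.

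Igf2, the other IGF ligand, was at -0.30 on TMM-normalized counts (SE 0.038, adjusted p = 5.02e-07), at 0.078 with library size only (adjusted p = 0.0660) and at 0.66 on log2(TPM + 0.1) (adjusted p = 8.36e-06), so no direction can be given for it. Its level was 22.9 ± 1.38 TPM in Tg-RKIP hearts and 14.5 ± 0.307 TPM in FVB, above that of Igf1 in each group. Ins1, Ins2 and Igfbp1 did not pass the filter.

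The growth hormone axis controls Igf1 transcription through JAK2 and STAT5. Of its 8 genes, 5 fell and 3 rose with TMM, beside 37.1% and 36.8% of all genes. With library size only 4 fell and 3 rose, beside 2650 and 9709 of all 15504 genes. The growth hormone receptor Ghr was lower (log2 fold change -0.67, adjusted p = 1.86e-17), at 74.4 ± 1.05 TPM in Tg-RKIP hearts and 88.9 ± 2.75 TPM in FVB. Jak2 (-0.57), Stat5b (-0.82) and the STAT5 target Cish (-0.96) were lower as well, on all scalings. Stat5a was at -0.38 with TMM and at -0.0073 with library size only, where it was not called.

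The feedback inhibitors Socs1 (0.87, adjusted p = 0.00584), Socs2 (0.63, adjusted p = 2.96e-10) and Socs3 (0.86, adjusted p = 5.73e-07) were higher. Socs2, a STAT5 target that restrains growth hormone signalling, stood at 30.6, 31.7 and 31.2 TPM in Tg-RKIP and at 17.1, 13.9 and 14.6 TPM in FVB. In the libraries labelled Tg-GRK2 it stood at 11.2, 11.2 and 11.3 TPM and fell against FVB (log2 fold change -0.44, adjusted p = 8.48e-06). The STAT5 targets Cish and Socs2 thus went opposite ways in Tg-RKIP.

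Of 12 receptor-proximal genes, 4 rose and 8 fell with TMM, beside 36.8% and 37.1% of all genes. With library size only 6 rose and 6 fell, beside 9709 and 2650 of all 15504 genes. Irs1, the docking protein for IGF1R and INSR, was lowest, at 2.25, 2.46 and 2.07 TPM in Tg-RKIP hearts, 4.38, 4.01 and 4.17 TPM in FVB and 4.43, 4.68 and 4.24 TPM in the libraries labelled Tg-GRK2, with a log2 fold change against FVB of -1.30 (SE 0.059, adjusted p = 1.22e-14). Irs2, its homologue, was at -0.56 in Tg-RKIP (adjusted p = 1.53e-09) and at -0.88 in the libraries labelled Tg-GRK2 (adjusted p = 6.76e-11). Irs3, a homologue known from mouse adipose tissue, was the highest at 1.64 (adjusted p = 1.14e-05), with 46 to 65 reads in Tg-RKIP and 11 to 16 in FVB.

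Of 24 genes of the PI3K, AKT and mTOR branch, 1 rose and 19 fell with TMM, beside 36.8% and 37.1% of all genes. With library size only 10 rose and 9 fell, beside 9709 and 2650 of all 15504 genes. The direction of the calls thus depended on the scaling. The median log2 fold change of the branch was -0.34 with TMM, 0.032 with library size only and 0.070 on log2(TPM + 0.1). On each scale it lay below the median of all genes, which was 0.0085, 0.38 and 0.43 in the same order. Pik3r1, the regulatory subunit p85 alpha, was lowest at -0.96 (adjusted p = 1.64e-18) and -0.59 with library size only. Pik3r3, another regulatory subunit, was highest at 0.26 (adjusted p = 2.48e-04). Of 12 FOXO genes and known FOXO targets, 3 rose and 8 fell with TMM, beside the same 36.8% and 37.1% of all genes. With library size only 7 rose and 4 fell, beside the same 9709 and 2650 of all 15504 genes. The extremes were Gabarapl1, an autophagy gene (0.62, adjusted p = 1.98e-15), and Foxo6 (-0.75, adjusted p = 0.000134). Igf2bp2, which binds Igf2 mRNA, was higher (0.94, adjusted p = 1.09e-05), and Igf2bp1 and Igf2bp3 did not pass the filter.

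**Figure D5:**
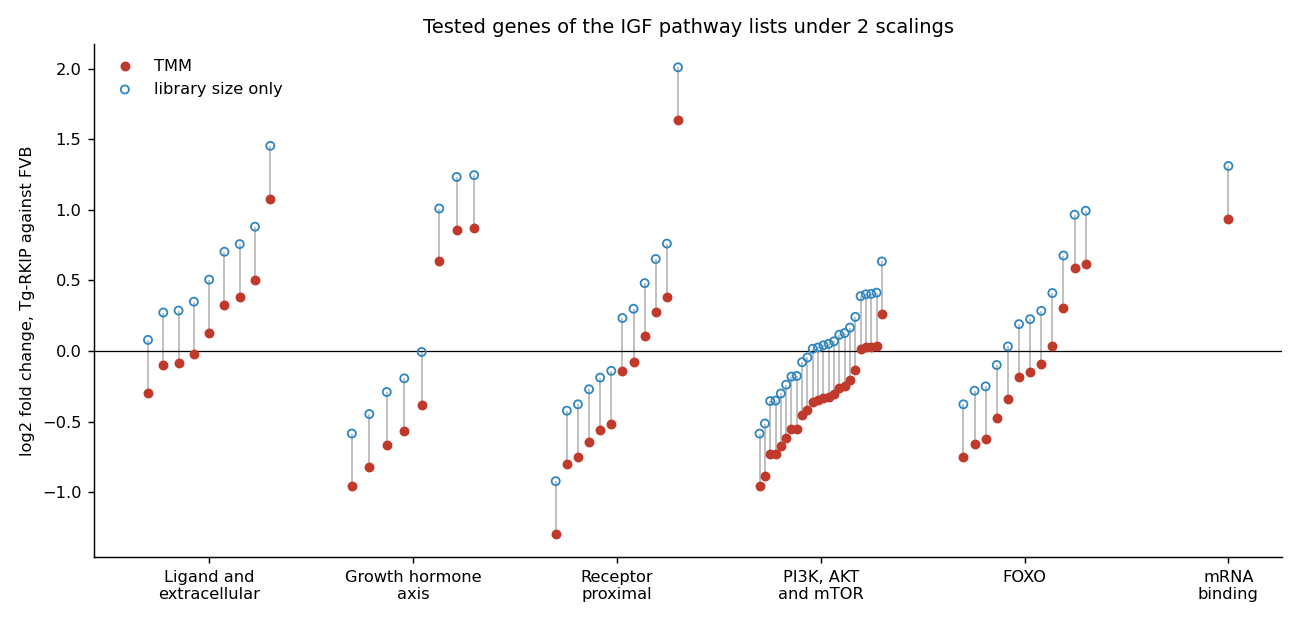
Log2 fold change in Tg-RKIP against FVB (vertical axis) of the 66 tested pathway genes by list, with TMM (filled) and with library size only (open), joined per gene. The shift between the scalings moves many genes of the PI3K, AKT and mTOR list across 0 but leaves Irs1 below it and Irs3 above it.

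Whole hearts hold many cell types, and in such bulk samples fewer cells of a type and less RNA per cell cannot be told apart. Of all tested genes, 36.8% were called higher in Tg-RKIP than in FVB with TMM and 37.1% lower, and the marker counts stand beside these shares. Fibroblast markers were higher in Tg-RKIP than in FVB for 6 of 6 genes, with a summed level of 2124 to 2127 TPM against 843 to 877 TPM. Macrophage markers were higher for 6 of 6, at 369 to 377 TPM against 141 to 145 TPM. Smooth muscle and pericyte markers were higher for 4 of 6 genes and lower for 2, at 871 to 891 TPM against 431 to 448 TPM, and endothelial markers higher for 3 and lower for 3, at 415 to 437 TPM against 236 to 237 TPM. In the endothelial sum Vwf changed most, from a mean of 37.2 TPM (FVB) to 192 TPM (Tg-RKIP). Pecam1 and Cldn5 also had higher means, and Cdh5, Kdr and Tek lower ones. Adipocyte markers were higher for 6 of 6, at 918 to 944 TPM against 595 to 626 TPM. Fabp4 made up most of this sum, with means of 855 TPM (Tg-RKIP) and 599 TPM (FVB). Its log2 fold change was 0.084 with TMM, beside 2.22 (Lep) to 2.90 (Cidec) for the other adipocyte markers. The endothelial and adipocyte sums thus each followed mainly 1 gene. Cardiomyocyte markers were lower for 6 of 6 with TMM, at 25771 to 26095 TPM against 26678 to 27494 TPM. With library size only 2 were higher and 4 lower, beside 9709 and 2650 of all 15504 genes. The part of these cell types in the binding protein levels was not tested.

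Markers of tissues that do not belong to heart also moved. Airway epithelium markers summed to 84.7 to 90.1 TPM in Tg-RKIP, 180 to 190 TPM in the libraries labelled Tg-GRK2 and 0 to 0.018 TPM in FVB, with Scgb1a1, Scgb3a2 and Bpifa1 at 0 in FVB. Cartilage markers (Col2a1, Acan, Comp and Chad) were higher in Tg-RKIP than in FVB for 4 of 4, beside 36.8% of all genes. They summed to 354 to 361 TPM in Tg-RKIP, 13.4 to 13.8 TPM in the libraries labelled Tg-GRK2 and 13.3 to 14.7 TPM in FVB. The part of these tissues in the results was not tested.

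Erythrocyte markers were higher in Tg-RKIP than in FVB for 4 of 4, beside 36.8% of all genes. They summed to 3468 to 3635 TPM in Tg-RKIP, 1659 to 1684 TPM in the libraries labelled Tg-GRK2 and 737 to 751 TPM in FVB, and their part was not tested. Liver markers, from the main source of circulating Igf1, summed to at most 4.15 TPM in any of these Tg-RKIP and FVB libraries. With TMM 1 of the 3 tested was higher in Tg-RKIP (Ttr, mean 2.92 against 0.703 TPM). The other 2 were lower, Serpina1a and Alb, which was at 0 in Tg-RKIP. Beside this, 36.8% of all genes were called higher and 37.1% lower.

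Among 11351 genes with at least 100 reads on average, those whose log2 TMM-normalized counts were most like Igf1 over the 9 libraries included Eef1g (r = 0.994) and Nudt16l1 (0.994). Of the other IGF genes, Igf1r (0.96), Igfbp3 (0.92), Igfbp6 (0.89), Igfbp7 (0.88) and Igfbp4 (0.87) had positive correlations with it, as did Igfbp5 (0.15), and Igf2r (-0.96) and Insr (-0.90) had negative ones. Such values were common, since 261 genes were more like Igf1 than Igf1r was, 1153 more than Igfbp3 and 2125 more than Igfbp4. These values describe 9 libraries in 3 groups and share the same libraries and scaling.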

How the data were processed

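RNA was measured in 9 heart libraries by single reads of 50 bases from fragmented mRNA with random-hexamer cDNA. The authors deposited read counts per transcript, as whole numbers without normalization, and TPM values, which equal those recomputed from the counts and transcript lengths to within 5.5e-06. The submitters' processing notes name GRCm39, and the aligner and counter are not given in the sources used here.

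Both were summed over gene names. Counts were normalized by TMM and tested in edgeR 4.0.16 (R 4.3.3) (filterByExpr, glmQLFit, glmQLFTest), in 1 model of the 3 group means over all 9 libraries, and Benjamini-Hochberg adjustment over 15504 genes at a threshold of 0.05. The SE is the absolute log2 fold change over the root of the quasi-F. For 8 shares and ratios of TPM per comparison, scipy 1.17.1 gave the exact two-sided permutation p, which cannot go below 0.1. The fit was tested on simulated data.

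The members and gene lists were chosen with earlier results of these data known. Values are given for all 10 members, the tested extracellular and growth hormone axis genes, the extremes of each other list past the threshold, and Irs1 and Irs2. A gene among those most like Igf1 is not reported here. Libraries of a group differed by 1.36 to 1.52 times counting noise, so no file was a copy of another. The spread within groups was thus little above counting noise, and the p-values of the count tests rest on it. Whether it holds the spread between animals was not tested. The labels number the libraries of a group as replicates, and whether any were prepared from shared material was not tested.

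Alternatives were DESeq2 size factors, library size only, scaling without mitochondrial genes, DESeq2 1.42.0, other filters, the replicate number as a block, only the groups compared, each library left out, limma 3.58.1 on log2(TPM) with pseudocounts of 0.1 and 1 (genes reaching 1 TPM in 3 or more libraries), glmTreat at 1.5, the most abundant transcript, and shares of reads.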

Additional observations from a re-analysis of the deposited data

Results flagged for a closer look

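For 3 genes Tg-RKIP and the libraries labelled Tg-GRK2 moved in opposite directions from FVB, each past the threshold, and the difference itself was tested in the same edgeR fit. Igf1 differed by 0.4989 on the log2 scale between Tg-RKIP and the libraries labelled Tg-GRK2 (adjusted p = 1.17e-10), Igf1r by 0.6517 (adjusted p = 7.21e-14) and Igf2r by -0.8786 (adjusted p = 1.61e-19). On log2(TPM + 0.1), Igf1 was not lower in the libraries labelled Tg-GRK2 than in FVB (0.062), and both comparisons share the FVB libraries.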

How the results depend on the processing

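In Tg-RKIP against FVB, all 10 genes kept their direction under every alternative run, and 207 of 210 values kept their side of the threshold. The exceptions were Igf1, Igf1r and Igfbp5 in the test against a 1.5-fold change, which was run with TMM only. There 15 of 66 pathway genes passed in place of 58 (4 higher and 11 lower), beside 23.6% of all genes in place of 73.9%. For the libraries labelled Tg-GRK2 against FVB, 0 of 10 IGF genes passed in place of 6, beside 1% of all genes in place of 24.5%. The pathway counts turned with scaling, from 17 higher and 41 lower to 34 and 23 (library size only) and 33 and 19 of 62 (log2(TPM + 0.1)). Over all genes the share of calls that were higher went from 49.8% to 78.6% and 82.0% in the same order. In the libraries labelled Tg-GRK2 against FVB, the 28 pathway genes called became 14 on log2(TPM + 0.1) and on log2(TPM + 1). They became 12 with the most abundant transcript and 1 against a 1.5-fold change. Of all genes, 24.5% were called with TMM, 1% against a 1.5-fold change, and 1578 higher and 613 lower of 13478 on log2(TPM + 0.1). Shares of all genes on log2(TPM + 1) and with the most abundant transcript were not counted.

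Small differences changed sign. Against FVB, in the libraries labelled Tg-GRK2, limma on log2(TPM + 0.1) and log2(TPM + 1) gave 0.0617 and 0.0564 for Igf1, 0.0290 and 0.0282 for Insr, and 0.0127 and 0.0120 for Igfbp3. Leaving out each library gave -0.0732 to 0.0231 for Igfbp3, the latter without FVB replicate 1. For Igfbp5 in Tg-RKIP against the libraries labelled Tg-GRK2, the log2 fold change was -0.0061 with DESeq2 size factors and with DESeq2, -0.0078 with no filter and with only the groups compared, -0.0046 with the most abundant transcript, and -0.0114 to 0.0106 over the fits that left out each library.

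As shares of reads, Igfbp6 differed by 0.217 percentage points in Tg-RKIP from FVB and by 0.563 from the libraries labelled Tg-GRK2. The share of Igfbp4 differed in the latter comparison by 9.47 in reads and 3.67 with the most abundant transcript, and in the libraries labelled Tg-GRK2 from FVB by -0.126 and -0.162.

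Replicate numbers were shared between groups, but deviations of same-numbered libraries correlated at -0.041 to 0.042, so the numbers gave no pairing. With the replicate block the counts called were 10, 6 and 9 for the IGF genes in the 3 comparisons and 58 for the pathway genes, as without it. Precision for Igfbp2 was limited by 8 to 14 reads in the libraries labelled Tg-GRK2 and FVB.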
